A study of Homo sapiens with 10 samples.

Results

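The mevalonate pathway enzymes described here were 8 genes, ACAT2, HMGCS1, MVK, PMVK, MVD, IDI1, FDPS and GGPS1, taken by gene name from the 35606 genes listed in each of 2 expression tables. All 8 were found in both tables, and all 8 passed the filter on low values, a mean of at least 1 CPM (reads of a gene scaled to the size of the library) over the samples of a table. RNA-seq was performed in QGP-1 cells, an established human pancreatic neuroendocrine tumor line that the labels give as wild type apart from the knockdown. For CRISPR interference, a dCas9 without nuclease activity, joined to the KRAB repressor, was brought to the start of PIKFYVE by the single guide sgPIKFYVE-1, or expressed with the control guide sgNC, in cells selected with puromycin as a pool after lentiviral infection. QGP-1 cells without a guide were given DMSO, 1 µM apilimod or 100 nM Torin-1. Apilimod is an inhibitor of the lipid kinase PIKfyve, and Torin-1 is an inhibitor of the kinase mTOR. The labels give 24 h for both drugs and no time for DMSO, while the study's figure legends give a shorter time. Each of the 5 groups had 2 samples, and nothing says that they came from separate cultures, so p-values measure only the spread between these samples, which may be technical.

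The mevalonate pathway builds isoprenoid units from acetyl-CoA in the cytosol and the endoplasmic reticulum. Its product farnesyl diphosphate is the branch point from which cells make cholesterol, dolichol, ubiquinone, haem A and the lipid anchors of prenylated proteins. Most of its genes are known targets of SREBP2, a transcription factor that is released from the endoplasmic reticulum when sterols are low and that often acts together with the CCAAT-binding factor NF-Y.

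In pathway order, ACAT2 (ENSG00000120437.8, chr6:159760328-159779055, forward strand of GRCh38 in GENCODE release 29) is the cytosolic thiolase that makes acetoacetyl-CoA. HMGCS1 (ENSG00000112972.15, chr5:43289395-43313512, reverse) adds another acetyl-CoA to give HMG-CoA, and the step from HMG-CoA to mevalonate was not analysed here. MVK (ENSG00000110921.14, chr12:109573255-109598117, forward) and PMVK (ENSG00000163344.6, chr1:154924734-154936991, reverse) are the successive kinases of mevalonate and phosphomevalonate. MVD (ENSG00000167508.12, chr16:88651935-88663161, reverse) is the decarboxylase that gives isopentenyl diphosphate, and IDI1 (ENSG00000067064.11, chr10:1039152-1049170, reverse) is its isomerase. FDPS (ENSG00000160752.14, chr1:155308748-155320666, forward) condenses these units to farnesyl diphosphate, and GGPS1 (ENSG00000152904.11, chr1:235327350-235344532, forward) extends it to geranylgeranyl diphosphate, the donor for geranylgeranylated proteins.

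HMGCS1, MVK and MVD passed the test in every comparison below, as did ACAT2, IDI1, FDPS and GGPS1. PMVK passed with Torin-1 and between the drugs, but not in the knockdown or with apilimod. The promoter windows of HMGCS1, MVK, MVD and PMVK are shown, a choice made with these results known. They are RefSeq windows on GRCh38.p14 that run from 250 bases before to 50 bases after a transcription start, written 5′ to 3′ on the strand of the gene. Capitals mark the CCAAT box (CCAAT, or ATTGG on the other strand) and the core of a sterol element (TCACNCCA).
HMGCS1 (chr5:43313363-43313662, reverse): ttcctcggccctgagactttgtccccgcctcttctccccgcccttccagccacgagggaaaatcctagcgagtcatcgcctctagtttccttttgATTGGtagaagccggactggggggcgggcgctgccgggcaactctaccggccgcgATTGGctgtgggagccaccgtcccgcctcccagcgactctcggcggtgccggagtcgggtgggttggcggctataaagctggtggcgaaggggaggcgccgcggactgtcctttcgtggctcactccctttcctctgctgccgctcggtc
MVK (chr12:109573544-109573843, forward): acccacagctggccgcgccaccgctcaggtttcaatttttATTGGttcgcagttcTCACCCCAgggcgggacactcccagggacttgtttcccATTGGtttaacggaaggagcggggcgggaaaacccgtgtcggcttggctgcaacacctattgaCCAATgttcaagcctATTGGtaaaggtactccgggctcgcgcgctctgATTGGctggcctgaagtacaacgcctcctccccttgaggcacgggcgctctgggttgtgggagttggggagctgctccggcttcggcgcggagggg
MVD (chr16:88663042-88663341, reverse): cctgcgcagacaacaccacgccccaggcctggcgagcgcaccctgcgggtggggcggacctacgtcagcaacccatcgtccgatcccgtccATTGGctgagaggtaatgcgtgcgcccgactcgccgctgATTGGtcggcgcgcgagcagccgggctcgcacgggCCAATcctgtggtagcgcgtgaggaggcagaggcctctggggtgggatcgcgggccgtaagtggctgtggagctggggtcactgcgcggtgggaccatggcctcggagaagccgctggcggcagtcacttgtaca
PMVK (chr1:154936670-154936969, reverse): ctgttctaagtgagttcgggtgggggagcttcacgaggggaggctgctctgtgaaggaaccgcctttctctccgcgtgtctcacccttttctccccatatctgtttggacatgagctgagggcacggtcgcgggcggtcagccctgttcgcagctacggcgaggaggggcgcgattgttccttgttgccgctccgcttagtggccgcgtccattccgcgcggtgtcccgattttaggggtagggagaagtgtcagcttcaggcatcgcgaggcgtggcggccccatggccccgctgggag
Both strands were searched for these motifs and for the GC box (GGGCGG), and no sterol core overlapped another motif. The reference held 12 windows for 7 of the enzymes. The CCAAT box was present at least once in 7 of these 12 windows, against 34.6% of 34943 windows over all genes. It was present 2 or more times in 6 of the 12, against 10.8% of all windows. The 12 windows are not independent, since windows of HMGCS1 overlap, as do windows of IDI1. In IDI1 the matches 132 and 129 bases before a start share bases. The windows over all genes were not matched to the 12 in base content. By gene, the window shown held 5 matches for MVK, 3 for MVD, 2 for HMGCS1 and 0 for PMVK. A further HMGCS1 window (chr5:43313132-43313431, not shown) held 0, while FDPS had 3 in its window, IDI1 had 3, 2 and 0 in its 3 windows and GGPS1 had 1 in 1 of its 3. The sterol core was found only in the MVK window, 195 bases before the start, and 3.95% of all windows hold it. The GC box was in 11 of the 12 windows and in 44.9% of all. These matches describe letters only. ACAT2 had no window in the table.

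PIKFYVE, the target of the knockdown, was at 101 and 97.5 CPM in the 2 sgNC samples and at 10.9 and 12.5 CPM in the 2 sgPIKFYVE-1 samples. The neuroendocrine identity of the cells was visible in every sample, with 8 of 8 neuroendocrine markers (CHGA and SYP among them) between 71.5 and 5622 CPM and 4 of 4 epithelial markers between 365 and 932 CPM. Of 8 markers of leukocytes, endothelium and fibroblasts, CD3E and COL3A1 were at 0 in every sample, and the summed level of the 8 ranged from 13.9 to 15.9 CPM with sgNC, from 9.55 to 11.2 with sgPIKFYVE-1, and from 3.53 to 5.61 in the drug table. The neuroendocrine markers were lower in sum with sgPIKFYVE-1 (6377 to 6618 CPM) than with sgNC (7445 to 7771). By the test 4 of 8 were lower, as were 20.9% of all genes, and CHGA, INSM1, SCG2 and SCG3 did not pass. These sums are weighted to the most abundant markers, SCG2 and CHGB, and the CHGB mean went from 2531 to 1587 CPM. With apilimod the markers summed to 6457 to 6597 CPM against 7503 to 7525 with DMSO, and the SCG2 mean went from 4064 to 3238 CPM. There 2 of 8 were lower, as were 2.79% of all genes. Under Torin-1 they summed to 9471 to 9734, with 4 of 8 higher and 2 lower, where 16.6% of all genes were higher and 21.8% lower. The part of these shifts in the results below was not tested. The values are shares of a library, so a change in the amount of RNA per cell cannot be told apart from a change of the other genes. Depth was estimated at 9.30 to 13.6 M reads per sample.

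PIKFYVE knockdown was compared with sgNC to ask what loss of the kinase did to the pathway. Transcripts of 7 of the 8 enzymes rose, from the thiolase to the prenyl transferases, and PMVK was the exception. The summed level of the 8 enzymes was 606 and 614 CPM with sgNC and 1244 and 1263 CPM with sgPIKFYVE-1, a 2.05-fold difference of the means. By limma on log2(CPM + 1), calling genes at a Benjamini-Hochberg adjusted p under 0.05, 21.6% of 13591 genes were higher, and the median log2 fold change was 0.76 for the 8 enzymes and -0.004 for all genes. Values did not overlap between the groups for any of the 8, with the knockdown higher, as held for 35.4% of all genes.

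At the entry of the pathway, ACAT2 had 28.6 and 25.5 CPM with sgNC and 74.5 and 71.4 CPM with sgPIKFYVE-1. The log2 fold change was 1.40 (SE 0.087, limma adjusted p = 1.9e-10), which ranked 72 from the top of all genes tested. HMGCS1, the next enzyme, had 131 and 135 CPM against 407 and 441 CPM. It ranked 44 from the top and had the largest change of the 8 at 3.18-fold (log2 fold change 1.66, SE 0.052, limma adjusted p = 6.1e-15). It was the only enzyme of the list past a log2 fold change of 1.5, a size that 0.405% of all genes reached with a higher level.

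The kinases and the decarboxylase in the middle of the pathway had smaller log2 fold changes than its first enzymes. MVK, the lowest of the 8 in level, was at 11.9 and 8.21 CPM with sgNC and at 18.9 and 14.3 CPM with the knockdown, on an estimated 128, 94.0, 172 and 133 reads. Relative to their mean, the samples of each group lay further apart than those of any other enzyme here. Its log2 fold change was 0.68 (SE 0.175, limma adjusted p = 0.0038). Without sgNC replicate 2 it was 0.44 (limma adjusted p = 0.061), and without sgPIKFYVE-1 replicate 1 it was 0.50 (limma adjusted p = 0.088). The call was also lost with no filter on low values (limma adjusted p = 0.094) and with no variance trend (limma adjusted p = 0.085).

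PMVK had 30.0 and 30.4 CPM with sgNC and 32.8 and 32.4 CPM with sgPIKFYVE-1. The replicates lay close together and the difference between the groups was small. Its log2 fold change was 0.10 with a 95% interval from -0.10 to 0.31 (limma adjusted p = 0.41). The fit moderates the spread of each gene by that of other genes, so this interval does not measure the spread of the PMVK values alone. MVD had 60.9 and 59.0 CPM against 82.0 and 72.9 CPM, the smallest of the 7 changes that passed, at 1.29-fold (log2 fold change 0.36, SE 0.075, limma adjusted p = 0.00071).

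The enzymes that form and condense the isoprenoid units also rose. IDI1 went from 97.3 and 96.4 CPM to 184 and 195 CPM, a log2 fold change of 0.96 (SE 0.058, limma adjusted p = 1.08e-10). FDPS, with the highest CPM of the 8 in sgNC cells, went from 215 and 228 CPM to 403 and 388 CPM, a log2 fold change of 0.83 (SE 0.049, limma adjusted p = 7.1e-11). GGPS1, beyond the branch to sterols, went from 31.2 and 31.8 CPM to 42.4 and 47.7 CPM, a log2 fold change of 0.50 (SE 0.093, limma adjusted p = 0.00025). The intervals of IDI1 (0.84 to 1.08) and FDPS (0.73 to 0.94) overlapped, as did those of MVK (0.32 to 1.05) and GGPS1 (0.30 to 0.70), so their order was not resolved.

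**Figure D1:**
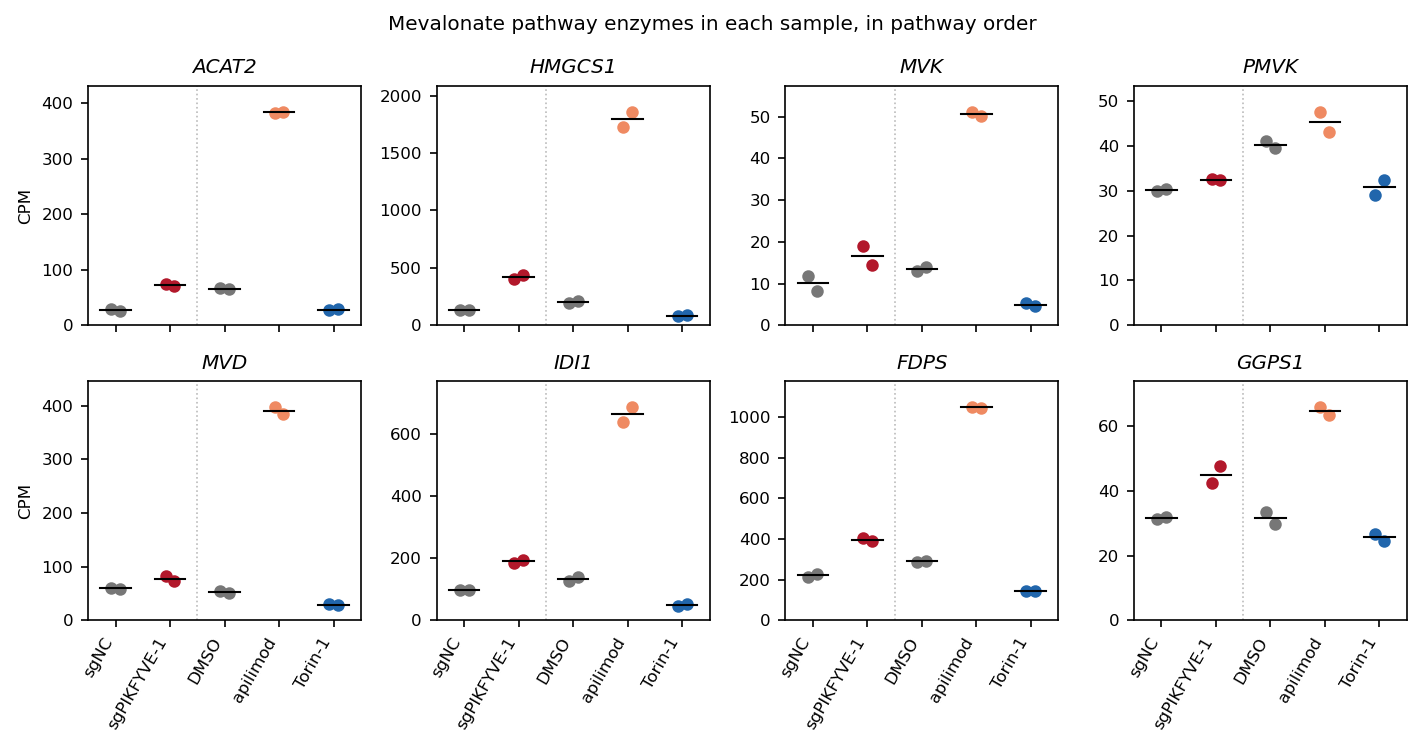
CPM (y axis, linear, its own scale in each panel) of the 8 enzymes in each of the 10 samples by group. Points are samples, bars are means of 2, and the dotted line parts the knockdown table from the drug table. Apilimod samples sit highest in every panel, from 43.1 CPM for PMVK to 1861 CPM for HMGCS1, and PMVK spans the narrowest relative range.

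Apilimod was compared with DMSO to ask what inhibition of the kinase by a small molecule did to the same genes. The same 7 enzymes were higher, by 2.04-fold to 8.95-fold, and PMVK again did not pass the test. The summed level of the 8 was 815 and 839 CPM with DMSO and 4367 and 4519 CPM with apilimod, or 5.37-fold. Of 13520 genes tested, 5.75% were higher, and the median log2 fold change was 2.08 for the 8 enzymes and -0.006 for all genes. The 8 enzymes were all higher in both apilimod samples than in both DMSO samples, as were 24.8% of all genes. A log2 fold change of at least 1.5 was reached by 6 of the 8, all but PMVK and GGPS1, and by 0.422% of all genes with a higher level.

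The count of all genes called was sensitive to single libraries. It was 1155 with all samples, 656 without DMSO replicate 1, 596 without DMSO replicate 2 and 688 without apilimod replicate 1, and the 7 enzymes passed in each of these fits. Of the genes called, 67.4% were higher, against 55.1% after quantile normalization and 54.2% with each sample rescaled to the same total.

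ACAT2 was at 67.1 and 64.9 CPM with DMSO and at 383 and 385 CPM with apilimod. Its log2 fold change was 2.52 (SE 0.066, limma adjusted p = 3.7e-12), the rank of 10 from the top of all genes tested. HMGCS1, at 1732 and 1861 CPM against 194 and 208 CPM, took rank 3 with a change of 8.95-fold (log2 fold change 3.16, SE 0.058, limma adjusted p = 1.4e-13). Both enzymes of the acetyl-CoA condensation therefore stood among the 10 highest log2 fold changes of the drug.

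MVK was at 12.9 and 13.9 CPM with DMSO and at 51.2 and 50.1 CPM with apilimod, a log2 fold change of 1.84 (SE 0.126, limma adjusted p = 2.2e-07). PMVK, its successor in the pathway, was at 41.1 and 39.6 CPM against 47.7 and 43.1 CPM. That difference was 0.17 on the log2 scale with a 95% interval from -0.04 to 0.37 (limma adjusted p = 0.35).

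MVD was at 54.0 and 50.6 CPM with DMSO and at 398 and 384 CPM with apilimod. This log2 fold change of 2.88 (SE 0.069, limma adjusted p = 2.0e-12) was the second largest of the 8 and ranked 6 of all genes. In the knockdown the same gene had ranked 1982, at 1.29-fold against 7.48-fold here. The tables were normalized separately and the difference between them was not tested.

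IDI1 was at 126 and 139 CPM with DMSO and at 639 and 686 CPM with apilimod, a log2 fold change of 2.32 (SE 0.073, limma adjusted p = 2.8e-11). FDPS was at 287 and 294 CPM against 1050 and 1045 CPM, a log2 fold change of 1.85 (SE 0.044, limma adjusted p = 2.0e-12). GGPS1 was at 33.5 and 29.8 CPM against 65.9 and 63.5 CPM, a log2 fold change of 1.01 (SE 0.094, limma adjusted p = 5.7e-06). No pair of groups overlapped, and GGPS1 had the smallest change of the 7 that passed. The interval of FDPS (1.75 to 1.94) lay inside that of MVK (1.57 to 2.11), so those enzymes were not resolved in the order.

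**Figure D2:**
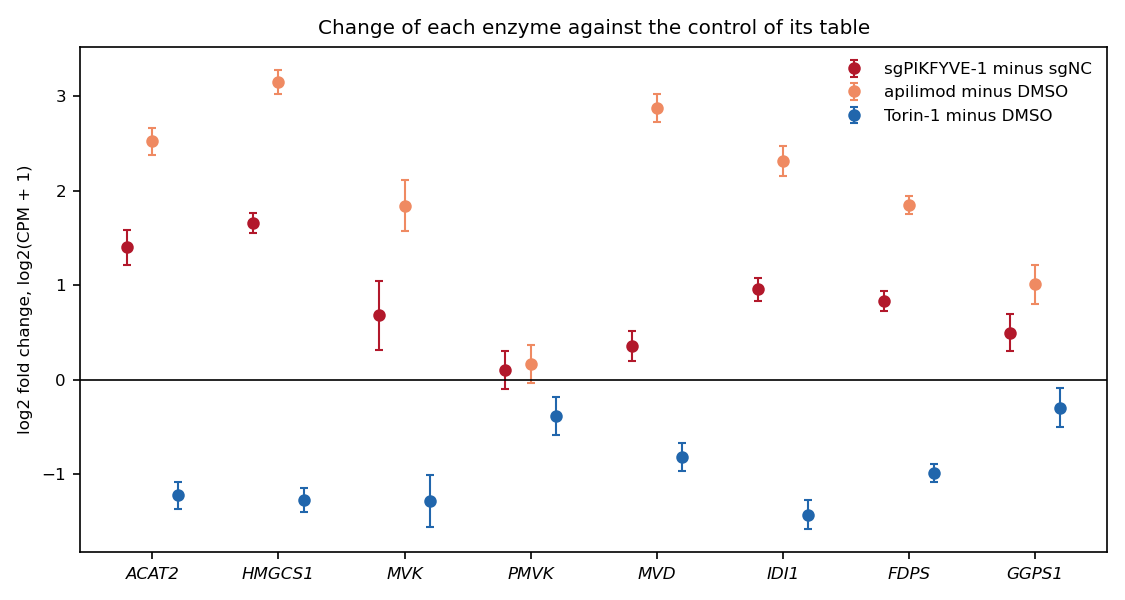
Log2 fold change on log2(CPM + 1) (y axis) of each enzyme in pathway order (x axis) for the 3 comparisons with a control, with 95% intervals from limma and 2 samples per group. HMGCS1 is the highest point for the knockdown (1.66) and apilimod (3.16), the PMVK intervals include 0 for both, and all Torin-1 points lie below 0. The drug comparisons share their DMSO samples.

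Torin-1 was compared with DMSO to ask what inhibition of mTOR did to the pathway. All 8 enzymes were lower, PMVK included, to between 36.8% and 81.0% of the DMSO mean. The summed level fell to 388 and 403 CPM, 47.9% of DMSO. By limma, 21.8% of all genes were lower, the median log2 fold change was -1.10 for the 8 enzymes and -0.01 for all genes, and the groups did not overlap for 8 of 8 enzymes, as for 36.6% of all genes with a lower level. None of the 8 fell by 1.5 on the log2(CPM + 1) scale, and 0.192% of all genes fell by that much.

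ACAT2 was at 26.9 and 28.5 CPM with Torin-1, 42.0% of its DMSO mean (log2 fold change -1.22, SE 0.066, limma adjusted p = 9.2e-09). HMGCS1 was at 78.9 and 86.2 CPM against 194 and 208 CPM with DMSO, 41.1% of its mean (log2 fold change -1.27, SE 0.058, limma adjusted p = 1.8e-09). The falls of these enzymes were close to each other, with overlapping intervals.

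MVK was at 5.31 and 4.55 CPM with Torin-1, the lowest values of any enzyme in any group, 36.8% of DMSO, on an estimated 57.0 and 52.8 reads (log2 fold change -1.28, SE 0.126, limma adjusted p = 3.7e-06). PMVK was at 29.1 and 32.5 CPM, 76.3% of DMSO (log2 fold change -0.38, SE 0.095, limma adjusted p = 0.0060). Without Torin-1 replicate 1 the value for PMVK was -0.30 and the call was lost (limma adjusted p = 0.0508). MVD was at 30.0 and 28.4 CPM, 55.8% of DMSO (log2 fold change -0.82, SE 0.069, limma adjusted p = 8.2e-07).

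IDI1 was at 45.2 and 52.3 CPM with Torin-1, 36.8% of DMSO like MVK, and rank 36 from the lowest of all genes (log2 fold change -1.43, SE 0.073, limma adjusted p = 5.9e-09). FDPS was at 146.3 and 146.4 CPM, 50.4% of DMSO (log2 fold change -0.98, SE 0.044, limma adjusted p = 1.6e-09). GGPS1 was at 26.7 and 24.6 CPM, 81.0% of DMSO, the smallest fall of the 8 (log2 fold change -0.29, SE 0.094, limma adjusted p = 0.025). The GGPS1 call was lost without DMSO replicate 1 (-0.21, limma adjusted p = 0.216) and without Torin-1 replicate 2 (-0.24, limma adjusted p = 0.120). It was also lost with no filter on low values (limma adjusted p = 0.057) and with no variance trend (limma adjusted p = 0.060).

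The drugs were then compared with each other, apilimod minus Torin-1, in the same fit of 6 samples. All 8 enzymes were higher with apilimod, where 26.2% of all genes were, and the summed level differed 11.2-fold. HMGCS1 showed the largest difference, 4.43 on the log2 scale (SE 0.058, limma adjusted p = 1.3e-15). ACAT2, IDI1 and MVD followed at 3.75, 3.74 and 3.70, with overlapping intervals. MVK stood at 3.13, FDPS at 2.83 and GGPS1 at 1.30. PMVK, with the smallest difference, was still 0.55 higher (95% interval 0.34 to 0.75, limma adjusted p = 0.00032). A difference of at least 1.5 was reached by 6 of the 8 enzymes and by 0.902% of all genes.

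Because CPM does not account for transcript length, levels of different enzymes were compared as CPM per kb, with the median length of the coding transcripts of a gene in GENCODE release 29. FDPS was the highest of the 8 in every group, at 181 CPM per kb with sgNC and 854 CPM per kb with apilimod, and MVK was the lowest in every group, at 5.67 CPM per kb with sgNC and 2.79 CPM per kb with Torin-1. FDPS alone held 53.3% of the summed CPM per kb of the 8 enzymes with sgNC, 51.0% with sgPIKFYVE-1, 53.2% with DMSO, 42.0% with apilimod and 53.2% with Torin-1. HMGCS1 was next after FDPS in all groups but Torin-1, where PMVK was at 24.1 CPM per kb (22.7 and 25.4) and HMGCS1 at 23.7 (22.6 and 24.7), levels that overlapped. IDI1 and MVD were also not resolved with sgNC (34.2 and 32.9 CPM per kb), since they exchanged places when the longest transcript was used, as they also did with apilimod and with Torin-1.

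The make-up of the pathway moved between groups. HMGCS1 went from 11.3% of the summed CPM per kb with sgNC to 19.2% with sgPIKFYVE-1, and from 12.9% with DMSO to 25.3% with apilimod and 10.6% with Torin-1. PMVK went the other way, from 6.97% to 4.02% with the knockdown and from 7.09% to 1.75% with apilimod, and it was at 10.7% with Torin-1. Within each sample, the log2 ratio of the CPM of HMGCS1 to that of PMVK was 2.13 and 2.15 with sgNC, 3.63 and 3.77 with sgPIKFYVE-1, 2.24 and 2.39 with DMSO, 5.18 and 5.43 with apilimod and 1.44 and 1.41 with Torin-1. In each table these ratios did not overlap between groups. The ratios were not tested.

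The log2 ratio of HMGCS1 to MVD, on the CPM scale, set the knockdown and apilimod side by side within their own tables. It was 1.11 and 1.19 with sgNC and 2.31 and 2.60 with sgPIKFYVE-1. In the drug table it was 1.84 and 2.04 with DMSO, 2.12 and 2.28 with apilimod and 1.40 and 1.60 with Torin-1. Treated and control groups did not overlap in either table, and the apilimod ratios lay close to those of DMSO.

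At the branch point, the ratio of FDPS to GGPS1 in CPM was 6.91 and 7.16 with sgNC and 9.52 and 8.15 with sgPIKFYVE-1. It was 8.55 and 9.87 with DMSO, 15.9 and 16.5 with apilimod and 5.48 and 5.95 with Torin-1. The groups did not overlap within either table, with apilimod highest and Torin-1 lowest in the drug table. The 8 FDPS pseudogenes listed in the tables were at no more than 0.362 CPM in any sample, against at least 146 CPM for FDPS.

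**Figure D3:**
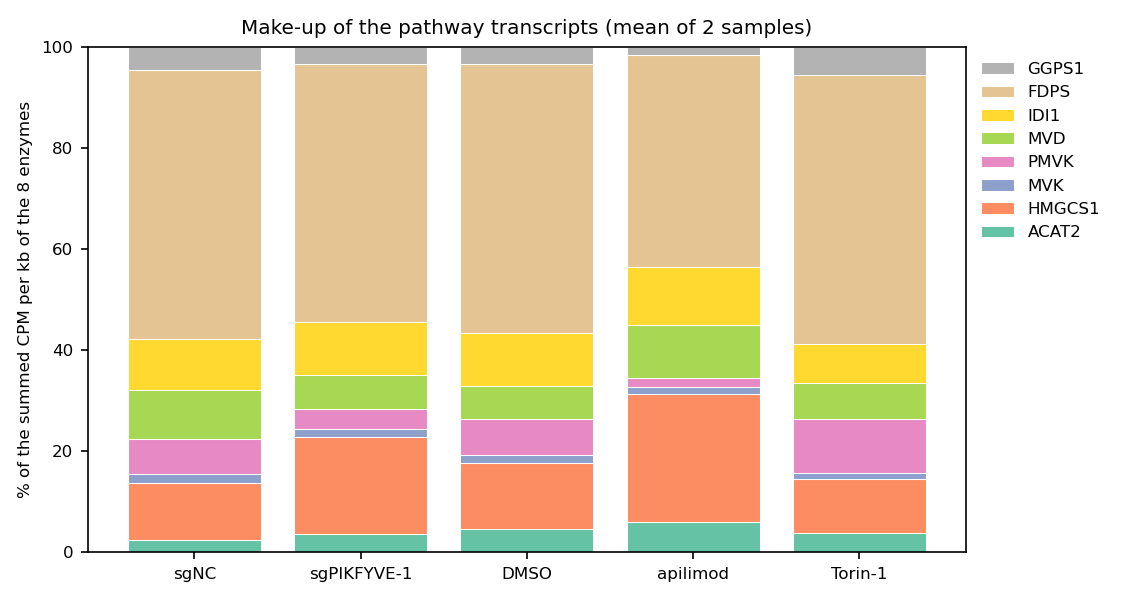
Share of each enzyme in the summed CPM per kb of the 8 (y axis, percent, starting at 0) by group (x axis), as the mean of 2 samples, stacked in pathway order from the bottom. FDPS is the largest block in all 5 groups, the HMGCS1 block is widest with apilimod (25.3%), and the PMVK block is widest with Torin-1 (10.7%).

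Past farnesyl diphosphate, the genes that commit it to sterols moved with the 8 enzymes. FDFT1 (squalene synthase), SQLE (squalene epoxidase) and LSS (lanosterol synthase) passed the test in all 3 comparisons with a control. Of all genes, 21.6% were higher in the knockdown, 5.75% were higher with apilimod and 21.8% were lower with Torin-1. Their log2 fold changes in the knockdown were 1.23, 1.07 and 1.27. With apilimod they were 2.15, 1.95 and 3.10, and with Torin-1 they were -1.34, -1.17 and -1.67. FDFT1 competes with GGPS1 for farnesyl diphosphate, and it went from 56.1 and 51.8 CPM to 133 and 124 CPM with the knockdown, from 75.3 and 69.5 CPM with DMSO to 335 and 314 CPM with apilimod, and to 28.5 and 27.6 CPM with Torin-1.

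The genes that use isoprenoids for other ends were counted as a list. All 22 such genes (dolichol, ubiquinone, haem A, vitamin K, protein prenylation and tRNA modification) were tested. In the knockdown 9 were higher and 1 lower, where 21.6% of all genes were higher and 20.9% lower. Their median log2 fold change was 0.18. Under apilimod 0 of 22 passed limma's adjusted test in either direction (5.75% of all genes were higher and 2.79% lower). The median was 0.02, and by limma without adjustment 4 higher and 1 lower gene had p under 0.05. The share of all genes at that unadjusted threshold was not counted, so nothing is read from it. With the sample number as a block, 1 of the 22 passed under apilimod, as did 1756 of 13520 genes. Under Torin-1, where 16.6% of all genes were higher and 21.8% lower, 2 of the 22 were higher and 7 lower, with a median of -0.19. That total of 9 was 5 without DMSO replicate 1 and 5 without DMSO replicate 2.

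DOLK, the dolichol kinase, changed in the knockdown (log2 fold change 0.70) and with Torin-1 (-0.43), and was at 0.04 with apilimod, which did not pass. COX10, which farnesylates haem, followed with 0.38 and -0.38. ICMT, which methylates prenylated proteins and had the highest CPM of the 22 genes with DMSO (256 and 271), showed 0.45 and -0.39. PTAR1, a relative of the prenyltransferase alpha subunits, went the other way, at -0.25 in the knockdown and 0.25 with Torin-1. With apilimod COX10, ICMT and PTAR1 were at 0.29, 0.15 and -0.18, and none passed. Larger values among the 22, chosen after they were seen, were those of COQ2 and PDSS1 in ubiquinone synthesis. In the knockdown COQ2 was at 10.9 and 14.1 CPM, against 5.66 and 6.46 CPM in the sgNC samples. Its log2 fold change of 0.93 (SE 0.180, limma adjusted p = 0.00036) was close to those of IDI1 and FDPS there. With apilimod COQ2 was at -0.15 and did not pass, where IDI1 was at 2.32 and FDPS at 1.85. PDSS1 went from 16.0 and 18.7 CPM with DMSO to 9.13 and 9.75 CPM with Torin-1. Its log2 fold change of -0.81 (SE 0.133, limma adjusted p = 0.00031) was close to that of MVD with Torin-1. With apilimod PDSS1 was at -0.07 and did not pass, where MVD was at 2.88.

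The mitochondrial and ketone-body counterparts of the first enzymes were a separate list of 8 genes, of which 6 were high enough to be tested. IDI2, the paralog of IDI1, was listed at 0 in every sample. ACAT1, the mitochondrial thiolase, rose in the knockdown from 78.5 and 74.5 CPM to 103 and 99.8 CPM, a log2 fold change of 0.40 against 1.40 for the cytosolic ACAT2. OXCT1, which activates ketone bodies and had the highest CPM of the list with DMSO (106 and 106), also rose there (0.65), so 2 of 6 passed, both higher, where 21.6% of all genes were higher. Under apilimod 0 of 6 passed limma's adjusted test, where 5.75% of all genes were higher and 2.79% lower. By limma without adjustment 0 of 6 had p under 0.05, a share that was not counted over all genes. ACAT1 was at 0.14 and OXCT1 at 0.01 with apilimod. Under Torin-1, ACAT1 (-0.24) and BDH1 (-0.37), a ketone-body dehydrogenase, were lower, 2 of 6 against 21.8% of all genes. That count of 2 was 0 without DMSO replicate 1 and 1 without Torin-1 replicate 1, Torin-1 replicate 2, apilimod replicate 1 or apilimod replicate 2.

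Of the 8 enzymes, 4 have a gene with a mean of at least 1 CPM on the other strand that overlaps them or starts within 1000 bases. The counting is not stated to use strand, so reads from overlapping stretches cannot be told apart. MVK and MMAB, which makes adenosylcobalamin, run head to head in GENCODE release 29 and overlap over 620 bases. Their RefSeq windows share 211 bases. The 1 sterol core and 5 CCAAT boxes of the MVK window lie in these bases, so those of the MMAB window are the same sites. MMAB was at 11.3 and 12.6 CPM with DMSO, 27.7 and 30.0 CPM with apilimod and 11.2 and 9.87 CPM with Torin-1.

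MMAB rose with apilimod by 1.20 on the log2 scale (SE 0.129, limma adjusted p = 2.3e-05), and MVK by 1.84. With Torin-1 MMAB was at -0.17 (limma adjusted p = 0.32) where MVK was at -1.28. In the knockdown MMAB was at 0.40 (limma adjusted p = 0.047). This call was lost without sgNC replicate 1 (0.22), without sgPIKFYVE-1 replicate 1 (0.46) and without sgPIKFYVE-1 replicate 2 (0.35). It was also lost with each sample rescaled to the same total, with no filter on low values and with no variance trend.

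The other neighbours did not follow their enzymes in all comparisons. TCP1, a subunit of the CCT chaperonin whose end overlaps that of ACAT2 over 558 bases, was at 0.40 in the knockdown, -0.06 with apilimod and -0.62 with Torin-1, and the apilimod value did not pass. WDR37, which starts 368 bases from IDI1, was at -0.24, 0.41 and 0.01, of which only the apilimod value passed (limma adjusted p = 0.034). That call was lost with any of the 4 DMSO and apilimod samples left out (0.37 to 0.46), and also with rescaling, with no filter and with no variance trend. ARID4B, which overlaps GGPS1 over 870 bases, was at -0.17, 0.02 and 0.35, and only the Torin-1 value passed. Under that drug it rose while GGPS1 fell. In the knockdown ARID4B passed as lower without sgPIKFYVE-1 replicate 2 (-0.27) and with each sample rescaled to the same total (-0.21), and so did WDR37 with the rescaling (-0.28). The difference between an enzyme and its neighbour was not tested.

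**Figure D4:**
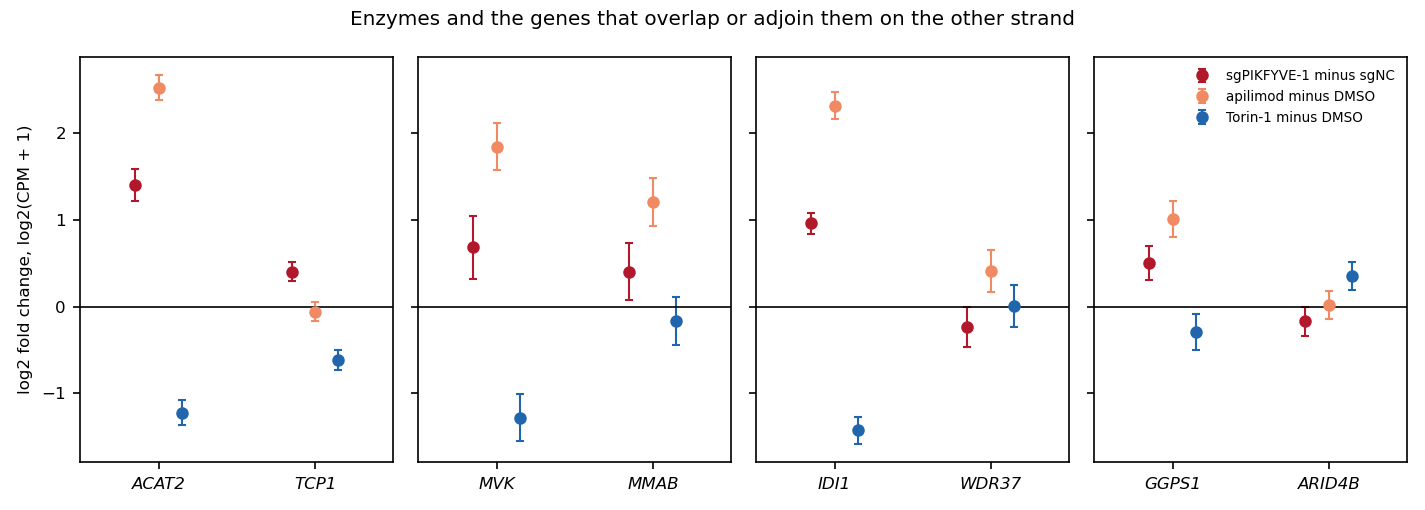
Log2 fold change on log2(CPM + 1) (y axis) of 4 enzymes and of the gene on the other strand beside each (x axis), with 95% intervals from limma and 2 samples per group. Under apilimod all 4 enzymes lie at 1.01 or above, and of the neighbours only MMAB does (1.20).

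To rank the enzymes by how closely they followed each other, the log2(CPM + 1) values of each were centred on their mean in each table and correlated with the mean of the other 7 over the 10 samples. Pearson's r was 0.999 for FDPS, 0.995 for IDI1 and for ACAT2, 0.992 for HMGCS1, 0.982 for MVK, 0.979 for GGPS1, 0.969 for MVD and 0.878 for PMVK. These r are descriptions without a test, because the 10 points fall into 5 groups of which apilimod lies far from the rest. In all, 13235 genes were tested in both tables, the 8 enzymes among them. Outside the list, those with the highest r to the mean of the 8 included LSS (0.999), FADS1 (0.999), NSDHL (0.998) and ERG28 (0.997). LSS, NSDHL and ERG28 act in sterol synthesis after squalene, and FADS1 is a fatty acid desaturase. FADS1 had log2 fold changes of 0.65 in the knockdown, 1.40 with apilimod and -0.68 with Torin-1. NSDHL had 0.84, 1.71 and -1.02, and ERG28 had 0.58, 1.502 and -0.77. All of these passed the test. The genes were picked for following the enzymes in these same samples, so those calls are not separate evidence.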

How the data were processed

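Gene expression was measured by RNA-seq in 10 samples of QGP-1 cells, which the sample titles place in 5 groups of 2. The submitters' processing notes name bcl2fastq 2.20, FastQC, Trimmomatic, edgeR and DESeq2 and the build hg38. According to the methods, transcript estimates were summed to genes and scaled with TMM factors. The quantifier and annotation are not given in the sources used here. The methods describe oligo(dT) selection, the labels depletion of ribosomal RNA. The deposited values are a signal on the CPM scale, TMM-scaled by the authors, in 1 table for the knockdown and 1 for the drugs, each normalized separately. Plain CPM had been assumed in planning, and the planned log-scale test was kept.

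Samples summed to between 972493 and 1024332. Depth, from the spacing of low values, was 9.30 to 13.6 M reads, and 3 reads equal 0.227 to 0.329 CPM, which covers counting error only. Whole reads, within 0.02 and under 20 reads, made up 68.1% to 71.5% of low values, too few for a count model. No pair of replicates differed by less than sampling noise.

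Genes averaging 1 CPM or more across a table entered limma 3.58.1 (R 4.3.3), with lmFit and eBayes with trend on log2(CPM + 1) and Benjamini-Hochberg adjustment over all genes tested. This scale understates the change of low genes such as MVK. There were 4 samples in the knockdown fit and 6 in that of the drugs, with no covariates. Fits were tested on simulated data. Plotting used matplotlib 3.10.9 in Python 3.11.15. Positions and transcript lengths are from GENCODE release 29 and promoter windows from RefSeq on GRCh38.p14.

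The members and lists were chosen with earlier results of these data known. Named were the 8 enzymes, the sterol branch genes, isoprenoid users and counterparts that passed in at least 2 of 3 comparisons with a control or had the highest level, neighbours averaging 1 CPM or more, and the 5 genes with the highest likeness. Of the likeness genes and of the counterparts, 1 each is not reported here. BDH1, COQ2 and PDSS1 were named after their values were seen.

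Alternatives were a pseudocount of 0.1, a minimum of 5 CPM or none, quantile normalization, rescaling each sample to the same total, no variance trend, only the compared groups, a replicate block and each sample left out.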

Additional observations from a re-analysis of the deposited data

How the results depend on the processing

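Of 424 values of the 8 enzymes under the alternatives, 415 kept their direction and their side of the threshold, 9 lost the call and 0 reversed. The lost calls were those of MVK in the knockdown and of PMVK and GGPS1 with Torin-1, given above. Among the neighbours, ARID4B under apilimod (0.02) reversed with rescaling to the same total (-0.011), with quantile normalization (-0.010) and without apilimod replicate 2 (-0.038, the lowest of -0.038 to 0.075 with a sample left out), and WDR37 under Torin-1 (0.01) reversed without DMSO replicate 2 (-0.038) and without Torin-1 replicate 1 (-0.10, the lowest of -0.10 to 0.12), and none of these values passed the test.

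Counts of all genes called, of users and of counterparts also moved. With no variance trend 3709 passed in the knockdown (5772 with the trend) and 466 under apilimod (1155 with it), and with no filter 565 passed under apilimod. Leaving out samples gave 596 to 1315 under apilimod. For the isoprenoid users under Torin-1 (9) that range was 5 to 11. For the counterparts under Torin-1 (2) it was 0 to 2, with 0 for no variance trend and 1 each for rescaling, no filter, only the compared groups and quantile normalization. Rescaling divides each sample by its own total (972493 to 1024332), which changed the summed level of the 8 enzymes to 1.996-fold in the knockdown and 10.8-fold between the drugs. Why the counts moved was not tested.

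The differences between replicates 1 and 2 of a group were correlated over genes with those of each other group of its table. Pearson's r was 0.037 in the knockdown table and 0.043 to 0.104 in the drug table, so the numbers were not taken as pairs. With the replicate block, 6111 genes passed in the knockdown, 1756 under apilimod, 5903 under Torin-1 and 6960 between the drugs, and 1 isoprenoid user passed under apilimod. The block changed no call of the 8 enzymes. With 2 samples a group, leaving out a sample assumes that the lone sample varies like the other groups. MVK limits the precision, with an estimated 52.8 reads in its lowest sample.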
